A study of Mus musculus with 2 samples.

Results

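The AP-1 and Egr immediate early genes were examined in cultured primordial germ cells (PGCs), the precursors of eggs and sperm, with and without over-expression (OE) of the transcription factor Klf9. They were taken as the rows of both libraries whose symbol is Jun, Junb, Jund, Fos, Fosb, Fosl1, Fosl2, Egr1, Egr2 or Egr3. All 10 were found, each as a single row, among 23320 gene symbols present in both libraries, of which 18742 were above 0 in at least 1 of them. The PGCs were sorted by GFP from E13.5 embryos of MCH females mated with Oct4-deltaPE-GFP males. The methods name genital ridges of male and female embryos and do not say how many embryos stand behind a library. Control PGCs received a control lentivirus (empty or with mCherry, the sources do not say which) and Klf9-OE PGCs a lentivirus carrying the Klf9 coding region in a vector with an EF promoter, each at an MOI of 5, with 1 day of culture before RNA extraction. Both groups were otherwise alike by their labels and each had 1 library. The sample labels describe GS medium with bFGF for both, whereas the text of the study describes this experiment as culture without bFGF. bFGF is a known inducer of these genes.

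Immediate early genes are transcribed within minutes of a signal, without new protein synthesis. Growth factors such as bFGF act through the MAP kinase ERK, which phosphorylates ETS-type partners of serum response factor (SRF) at CArG boxes, and cAMP acts through CREB at cAMP response elements (CREs). The Jun and Fos proteins then pair through leucine zippers to form AP-1, while the Egr proteins bind GC-rich sites with zinc fingers. Klf9 binds GC-rich DNA of a related kind. Kit, FGF and cAMP signals of this kind are known to act on the survival, growth and reprogramming of PGCs.

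The 10 genes did not move together between the libraries. Egr1, Egr2, Jun and Junb were higher in Klf9-OE PGCs, Jund was lower, and Fos, Fosb, Fosl2 and Egr3 had overlapping intervals. Fosl1 was listed at 0 in the control library and above 0 in the Klf9-OE library, and that 0 may be a failed estimate. Levels are given as RPKM, the number of reads scaled to exon length and library size, with the 95% interval that Cufflinks attached to each. That interval covers estimation within a library only. Each condition had 1 library, so the differences carry no estimate of the spread between replicates, and no test was made. Intervals did not overlap for 5 genes that were higher in Klf9-OE PGCs (4 without Fosl1, whose control interval is 0 to 0), where 11.2% of all genes did the same, and for 1 gene that was lower, against 14.4% of all genes. These 2 shares cover genes of all levels, and shares by intervals among genes of like level were not computed. Of the 18742 genes, 6177 were below an RPKM of 1 in both libraries, as were 3 of the 10. Of the 10 genes, 2 (Egr1 and Fosl1) were higher by 2-fold or more and 0 were lower by that much, against 9.82% and 9.43% of all genes. Among genes that reached an RPKM of 1 in a library, which held 7 of the 10, those backgrounds were 3.93% and 3.79%, and Egr1 alone of the 7 passed 2-fold. The median log2 fold change of the 10 genes, from log2(RPKM + 0.1), was 0.29, and that of all 18742 genes was -0.015.

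**Figure D1:**
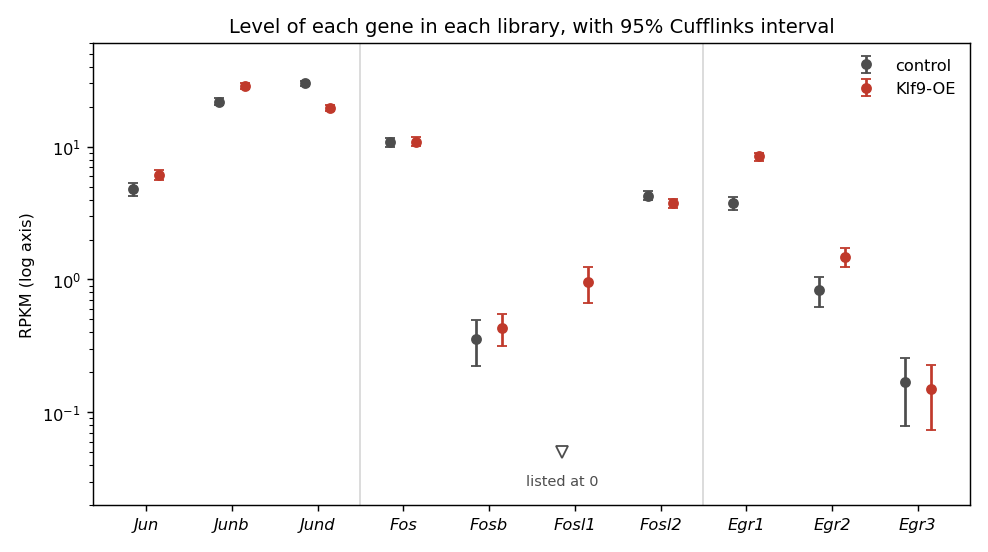
RPKM of each gene (log axis) in the control library (grey) and the Klf9-OE library (red), with points for the values and bars for the 95% Cufflinks intervals. Junb and Jund exchange places at the top, Egr1 stands apart from its control value, Fos and Egr3 do not, and the open triangle marks Fosl1, listed at 0 in the control library.

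For the Klf9-OE library an interval wider than the deposited one was used as well. The width of a Cufflinks interval implies how many reads stand behind a value, and among genes with 1 to 9 implied reads (within 0.06 of a whole number) that number was even in 87.8% of 1809 genes of the Klf9-OE library against 36.2% of 2170 genes of the control library. If those reads were counted in pairs, the distance from value to bound grows 1.41 times. With that width the same 5 genes and the same 1 gene kept intervals that did not overlap. The backgrounds were 8.48% and 12.0% of all genes, again over genes of all levels. Bounds of ratios below are given in this wider form. The implied depth was 22200000 mapped reads in the control library (median over 1296 genes with 1 annotated transcript, rounded, quartiles 15600000 and 25200000) and 27900000 in the Klf9-OE library (over 1533 genes, 18700000 and 30700000). As the check of the vector, Klf9 itself stood at an RPKM of 2.27 in the control library (1.97 to 2.57) and 80.8 with Klf9-OE (77.0 to 84.5). The ratio was 35.6 (30.7 to 41.3). The study reports a far larger fold by RT-qPCR at the same MOI, a different measure taken after a longer culture.

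The promoter windows of 3 genes are shown. All 3 hold the core letters TGACG of a CRE, and Egr2 alone holds a CArG box. CArG boxes and CREs are kinds of site that ERK and cAMP signals are known to act on. The genes were also picked because they differed: Egr2 and Junb were higher in Klf9-OE PGCs, and the intervals of Fos overlapped. Fosb holds the core too and is not shown. Whether these letters bear on the differences was not tested. The windows run from 250 bases before to 50 bases after the RefSeq start site on GRCm38.p6, the build of mm10, and are written 5′ to 3′ on the strand of the gene. Egr2 is at chr10:67537619-67537918 (forward strand), Junb at chr8:84978699-84978998 (reverse strand) and Fos at chr12:85473640-85473939 (forward strand). Capitals mark a CArG box or the CRE core TGACG, which reads CGTCA where it lies on the other strand.
Egr2: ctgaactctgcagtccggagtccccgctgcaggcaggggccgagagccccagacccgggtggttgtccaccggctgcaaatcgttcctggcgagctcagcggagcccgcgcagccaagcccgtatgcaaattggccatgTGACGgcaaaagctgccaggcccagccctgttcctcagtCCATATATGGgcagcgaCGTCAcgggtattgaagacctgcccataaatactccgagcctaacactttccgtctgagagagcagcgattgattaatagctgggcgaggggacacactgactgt
Junb: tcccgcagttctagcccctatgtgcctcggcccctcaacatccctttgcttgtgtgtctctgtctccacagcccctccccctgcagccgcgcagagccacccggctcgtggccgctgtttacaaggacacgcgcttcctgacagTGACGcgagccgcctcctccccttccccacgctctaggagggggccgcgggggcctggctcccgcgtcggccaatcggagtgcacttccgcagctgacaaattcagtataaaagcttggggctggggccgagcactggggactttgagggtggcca
Fos: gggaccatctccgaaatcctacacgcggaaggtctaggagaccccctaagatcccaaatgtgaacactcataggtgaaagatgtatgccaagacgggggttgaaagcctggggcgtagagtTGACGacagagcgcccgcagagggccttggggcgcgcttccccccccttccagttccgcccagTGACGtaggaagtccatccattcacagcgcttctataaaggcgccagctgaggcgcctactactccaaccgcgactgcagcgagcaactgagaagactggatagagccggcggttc
The Egr2 window holds a CArG box from -72 to -63 relative to the start site, with CRE cores on either side, at -111 to -107 and -55 to -51. It is 1 of 5 windows in the table for Egr2, the one at the start of the locus in the files. The Junb window holds 1 CRE core, at -106 to -102, and the Fos window holds 2, at -129 to -125 and -66 to -62. Fos is the textbook case of a gene driven by a CArG box, which is known to lie further upstream than this window reaches.

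Windows were used for 7 of the 10 genes. Egr3 and Fosl1 had none in the table used, and windows on chromosome 18, where Egr1 lies, were left out for these genes. Shares over 27025 genes took the first listed window of each gene, whereas the 7 were read from the window nearest to the locus start. A CArG box was in 1.57% of the 27025 and in 1 of the 7 (Egr2). The core TGACG was in 21.0% and in 4 of the 7 (Egr2, Fos, Fosb and Junb). The whole CRE TGACGTCA was in 1.88% of windows and the AP-1 site TGANTCA in 7.93%, and 0 of the 7 held either. The Egr site GCGNGGGCG was in 5.55% of windows and in 2 of the 7, Fosb at -50 to -42 and Fosl2 at -79 to -71. The GC box GGGCGG, which overlaps the Egr site in both of those windows, was in 35.9% of windows and in 4 of the 7. CACCC was in 56.7% and in 6 of the 7, and the ETS core CGGAAGT was in 6.59% and in Junb alone of the 7. Both strands were searched, and a match describes letters in the window, not a bound site. The Jund window had neither a GC box nor a CRE core, and it begins at a RefSeq start site 1210 bases upstream of the start of the GENCODE gene model.

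**Figure D2:**
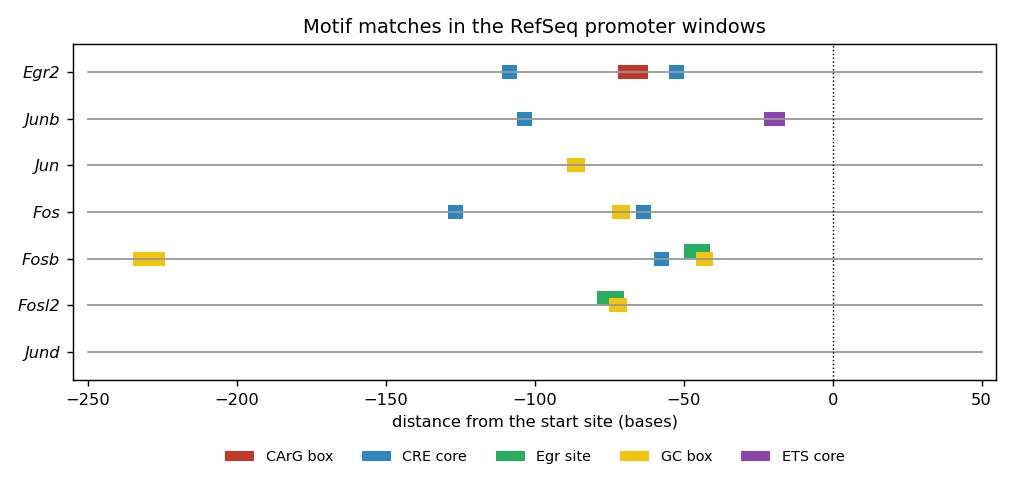
Matches to 5 motifs (coloured bars) along the promoter windows of 7 genes, with distance from the start site in bases on the x axis and the start site as a dotted line. Egr2 has the one CArG box, Fosb and Fosl2 have the Egr sites, raised above the line where a GC box overlaps them, and Jund has none of these motifs.

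Among the Jun family, whose proteins are the obligate partners in most AP-1 dimers, Junb and Jund exchanged rank. Jund, the family member that is expressed most steadily in many tissues and whose protein can restrain growth, stood at an RPKM of 30.1 in the control library (28.9 to 31.4) and 19.7 with Klf9-OE (18.7 to 20.6). Its intervals were well apart, and the ratio was 0.652 (0.602 to 0.706 from the wider intervals). Junb, a classical immediate early gene, had 21.9 (20.5 to 23.3) in control PGCs and 28.7 (27.3 to 30.2) with Klf9-OE. It was 1.31 times as high with Klf9-OE (1.19 to 1.44), and its intervals did not overlap. Junb was at 0.727 times the RPKM of Jund in control PGCs and at 1.46 times it in Klf9-OE PGCs.

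Jun, the strongest activator of the family in many assays, stood at an RPKM of 4.79 (4.27 to 5.31) in the control library and 6.15 (5.65 to 6.65) with Klf9-OE, a ratio of 1.28 (1.10 to 1.504). Its intervals were separate, though the gap between them was small. The summed RPKM of the 3 genes was 56.8 in control PGCs (54.9 to 58.8) and 54.5 with Klf9-OE (52.8 to 56.3), with overlapping intervals. Its make-up differed instead: Jund made up 53.0% of the sum in control PGCs and 36.0% in Klf9-OE PGCs, Junb 38.6% and 52.7%, and Jun 8.43% and 11.3%.

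Jund lies on chromosome 8 from 70697739 to 70700616 (forward strand, mm10 as in the files), Junb on the same chromosome from 84976909 to 84978748 (reverse), and Jun on chromosome 4 from 95049036 to 95052256 (reverse). In GENCODE M21 an antisense transcript, Gm11175, covers 877 of the 1668 exon bases of Jund. The library kit does not mark strand, so reads of the 2 cannot be told apart in these bases, and the part of Gm11175 in the Jund value was not tested. Jun was rebuilt by the assembly in the control library, where its locus ends 34 bases further out than in the Klf9-OE library.

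**Figure D3:**
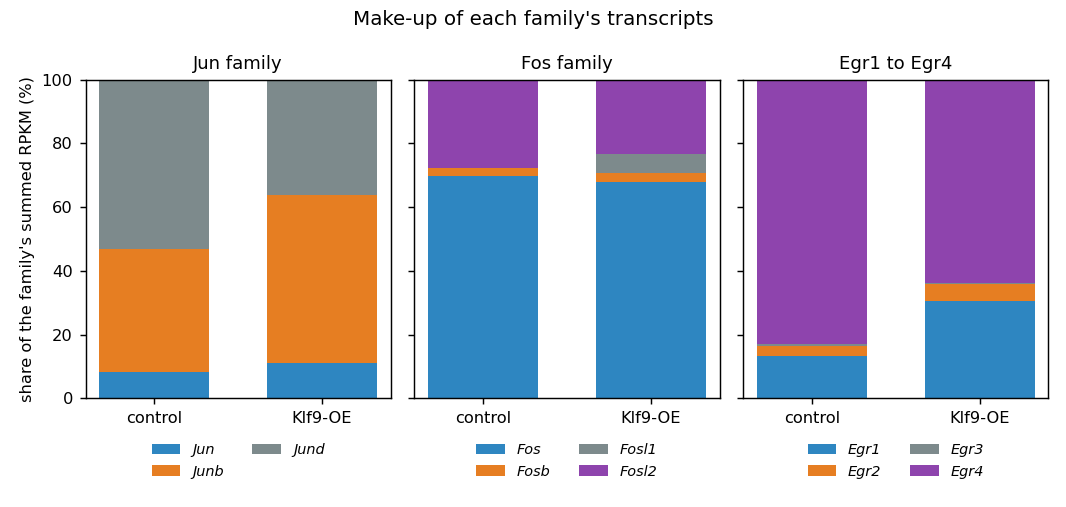
Share of each family's summed RPKM (%, stacked bars) that each gene made up in the control and Klf9-OE libraries. The share of Jund is 53.0% in control and 36.0% in Klf9-OE, Fos holds about the same share of the Fos family in both, and Egr1 makes up 13.4% of the sum of Egr1 to Egr4 in control and 30.5% in Klf9-OE.

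In the Fos family, Fos had overlapping intervals and Fosl1 was above 0 in the Klf9-OE library alone. Fos, the prototype of the immediate early genes, stood at an RPKM of 10.8 in the control library (9.87 to 11.7) and 10.9 with Klf9-OE (10.1 to 11.8). The intervals almost coincide, and the ratio of 1.01 lay within bounds of 0.882 to 1.16, which puts Fos within those limits in this pair of libraries. Fosl2, which encodes Fra-2 and usually responds later and for longer, had 4.29 (3.95 to 4.62) and 3.78 (3.48 to 4.07). Its intervals overlapped, and the ratio of 0.881 had bounds of 0.769 to 1.01. From the intervals as deposited those bounds were 0.789 to 0.984, so whether they include 1 depends on the width used. Fosb, best known from neurons, had 0.358 (0.222 to 0.493) and 0.433 (0.313 to 0.554), a ratio of 1.21 with bounds of 0.702 to 2.09. About 28 reads in the control library stand behind Fosb, and its intervals overlapped.

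Fosl1 encodes Fra-1, a Fos protein without the strong activation domain of Fos, whose transcription is a known delayed response to sustained ERK signalling. It was listed at 0 in control PGCs and stood at an RPKM of 0.956 (0.669 to 1.24) in Klf9-OE PGCs, so no ratio is given. The interval implies 44.5 reads, or 22.3 if they were counted in pairs, with 1 read worth an RPKM of 0.0215. An exact 0 can be a failed estimate, although the file marks the row as OK. On the opposite strand, Ccdc85b shares 1163 of the 1864 exon bases of Fosl1, and reads from the 2 genes are not separated in these bases. Ccdc85b was also higher, with 1.57 (1.32 to 1.81) in control PGCs and 2.86 (2.55 to 3.17) with Klf9-OE, a ratio of 1.82. Its part in the Fosl1 value was not tested.

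The summed RPKM of the 4 Fos family genes was 15.4 in control PGCs (14.5 to 16.4) and 16.1 with Klf9-OE (15.2 to 17.03), and the intervals overlapped. Fos made up 69.9% and 67.9% of it, Fosl2 27.8% and 23.5%, and Fosl1 0% and 5.94%. The Fos sum was well below the Jun sum in both libraries. Fos lies on chromosome 12 from 85473901 to 85477270 (forward strand), Fosl1 on chromosome 19 from 5447698 to 5455938 (forward), Fosl2 on chromosome 5 from 32136472 to 32157839 (forward) and Fosb on chromosome 7 from 19302696 to 19310045 (reverse). The assembly rebuilt Fosb in the control library with the same bounds, and Fosl2 in the Klf9-OE library, where it starts further upstream, at 32135787.

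Among the Egr genes, Egr1 and Egr2 were higher in Klf9-OE PGCs. Egr1, the most widely used marker of ERK-driven transcription, stood at an RPKM of 3.76 in the control library (3.32 to 4.2003) and 8.45 with Klf9-OE (7.85 to 9.04). The intervals were far apart, and the ratio of 2.25 (1.93 to 2.62) was the highest of the 9 genes above 0 in both libraries. Egr2, also called Krox20 and known from hindbrain and Schwann cell development, had 0.829 (0.615 to 1.04) and 1.49 (1.23 to 1.74). Its intervals did not overlap either, at a lower level and with a less exact ratio of 1.80 (1.26 to 2.55). Egr3, a later member of the same response, had 0.168 (0.0792 to 0.257) and 0.149 (0.0728 to 0.225). Its implied reads were 14.3 and 15.3, the latter 7.65 if counted in pairs. The ratio of 0.885 had bounds of 0.361 to 2.17, so a 2-fold difference either way could not be resolved.

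The remaining family member, Egr4, was the most abundant Egr transcript of these PGCs and was lower in the Klf9-OE library. Its RPKM was 23.3 in control PGCs (21.9 to 24.6) and 17.6 with Klf9-OE (16.6 to 18.7), a ratio of 0.758 (0.684 to 0.840) with intervals that did not overlap. Egr1 was at 0.162 times the level of Egr4 in control PGCs and 0.479 times in Klf9-OE PGCs. The sum of Egr1 to Egr4 was 28.03 (26.6 to 29.5) and 27.7 (26.5 to 29.0), with overlapping intervals. Without Egr4 the sum was 4.76 (4.26 to 5.25) and 10.1 (9.43 to 10.7), with separate intervals. Egr1 made up 79.0% and 83.8% of that smaller sum. The corepressors Nab1 and Nab2, which bind Egr1 and Egr2, had overlapping intervals. Nab1 had 11 (10.4 to 11.6) and 10.5 (9.99 to 10.998), and Nab2, itself a target of Egr proteins, had 19.4 (18.1 to 20.7) and 20.9 (19.7 to 22.1). By the files, Egr1 lies on chromosome 18 from 34861207 to 34864956, Egr2 on chromosome 10 from 67537869 to 67542188 and Egr3 on chromosome 14 from 70077445 to 70082613, all on the forward strand, and Egr4 on chromosome 6 from 85511122 to 85513542 on the reverse strand.

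**Figure D4:**
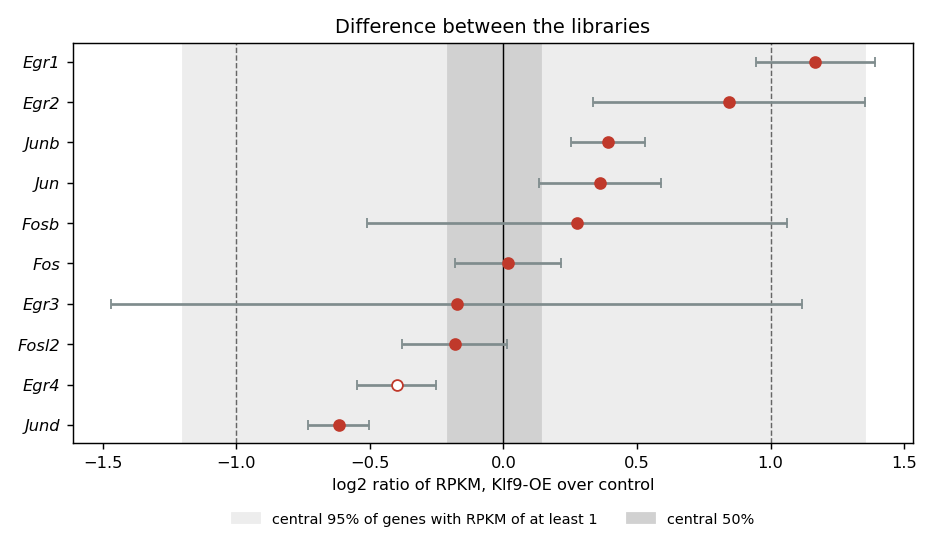
Log2 ratio of RPKM, Klf9-OE over control, for the 9 genes above 0 in both libraries (filled) and Egr4 (open), with approximate 95% bounds from the wider Klf9-OE intervals. Dashed lines mark 2-fold, the grey bands hold the central 95% and 50% of log2 differences, from log2(RPKM + 0.1), of 12565 genes reaching an RPKM of 1, and only Egr1 lies past the upper dashed line.

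The levels spanned a wide range. In control PGCs the order of RPKM was Jund, Junb, Fos, Jun, Fosl2, Egr1, Egr2, Fosb, Egr3 and Fosl1. The intervals of Jun and Fosl2 overlapped, as did those of Fosl2 and Egr1 and of Fosb and Egr3. In Klf9-OE PGCs the order was Junb, Jund, Fos, Egr1, Jun, Fosl2, Egr2, Fosl1, Fosb and Egr3, and among neighbours the deposited intervals overlapped for Egr2 and Fosl1, and the wider ones also for Fosl1 and Fosb. Egr1 was above 49.7% of the 18742 genes in control PGCs and above 61.5% with Klf9-OE, and Fos was above 65.4% and 65.9%.

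Other genes of the same response were set beside these. For the counts in the lists below, the shares over all genes were 11.2% higher and 14.4% lower by separate intervals. By 2-fold they were 9.82% higher and 9.43% lower. Of 7 bZIP genes whose proteins pair with Jun or compete with Fos for it, 2 were higher with intervals that did not overlap and 3 were lower, with a median log2 fold change of -0.026, or -0.34 over the 6 that reached an RPKM of 1. Atf3, a stress-induced partner of Jun, had 1.07 (0.770 to 1.36) in control PGCs and 2.25 (1.76 to 2.74) with Klf9-OE. The 3 lower genes were Batf with 9.29 (7.88 to 10.7) and 5.87 (4.87 to 6.87), Batf3 with 25.3 (22.4 to 28.1) and 14.9 (13.0 to 16.8), and Jdp2 with 1.39 (0.999 to 1.79) and 0.615 (0.371 to 0.859). These encode bZIP proteins that lack the activation domains of Fos.

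Of 26 other immediate early genes, 10 were higher and 2 lower with intervals that did not overlap, and 1 passed 2-fold upward and 0 downward. Their median log2 fold change was 0.23, close to the 0.29 of the AP-1 and Egr genes. The 1 gene past 2-fold was Plk3, a stress-responsive kinase, with 2.43 (2.01 to 2.86) in control PGCs and 5.75 (5.12 to 6.39) with Klf9-OE. Ier2 had 8.54 (7.57 to 9.52) and 12.2 (11.1 to 13.3), and Rhob, a small GTPase, had 10.3 (9.47 to 11.2) and 13.7 (12.8 to 14.6), both without overlap. Maff, a small Maf factor, had 6.07 (5.33 to 6.81) and 3.78 (2.27 to 5.30), and its intervals were separate only as deposited, not with the wider form.

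A list of ETS factors and feedback inhibitors that ERK signalling induces had a higher median log2 fold change than the AP-1 and Egr genes. It was chosen with earlier results of these data known, so its counts are not independent of them. All 12 genes were higher with intervals that did not overlap, 8 of them at least 2-fold, and their median log2 fold change was 1.21. Etv4 had 2.26 (1.86 to 2.67) in control PGCs and 18.8 (17.5 to 20.1) with Klf9-OE. Dusp6, a phosphatase of ERK, had 4.30 (3.81 to 4.79) and 14.2 (13.4 to 15.02). Dusp1, of the same family as Dusp6, was counted with the other immediate early genes. It had 10.3 (9.38 to 11.3) and 11.4 (10.5 to 12.3), with overlapping intervals. The ratio of Egr1, at 2.25, was below that of Etv4, at 8.31, Spry4, at 7.94, Etv5, at 4.13, and Dusp6, at 3.31, the 4 genes named by the size of their change. Over the whole list, 7 genes had a higher ratio than Egr1 and 5 a lower one. Whether the AP-1 and Egr genes differ from these genes in their response was not tested, since each condition had 1 library.

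Upstream, Srf, which binds CArG boxes, had 13.1 (12.2 to 13.9) in control PGCs and 22.3 (20.9 to 23.7) with Klf9-OE. Its ETS partners Elk3, with 1.20 (0.980 to 1.42) and 2.27 (1.996 to 2.55), and Elk4, with 3.64 (3.06 to 4.22) and 4.89 (4.48 to 5.31), were higher too. In all, 3 of the 5 genes found for SRF and its cofactors had separate intervals, all of them higher, and Elk1 was not found under its own symbol. Of 14 MAP kinases, their activating kinases and downstream kinases, 3 were higher and 2 lower (2 and 2 with the wider intervals), at a median log2 fold change of 0.043, and Rps6ka4 was not found. Mapk3, which encodes ERK1, had 72.6 (70.0 to 75.2) in control PGCs and 48.8 with Klf9-OE. Its Klf9-OE interval of 0 to 11321.6 is too wide for a call in either direction. Mapk8, which encodes the Jun kinase JNK1, had 14.5 (13.7 to 15.3) and 35.1 (32.7 to 37.5), and Rps6ka5, which encodes the histone kinase MSK1, had 15.04 (13.7 to 16.4) and 8.57 (7.95 to 9.19). RNA levels of kinases do not measure their activity.

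Of 12 genes found among textbook AP-1 targets, 5 of which stayed below an RPKM of 1 in both libraries, 6 were higher with intervals that did not overlap and 0 were lower, with a median log2 fold change of 0.39, or 0.78 over the 7 that reached an RPKM of 1. Plaur, the urokinase receptor, had 2.77 (2.18 to 3.36) in control PGCs and 8.69 (7.75 to 9.63) with Klf9-OE. Its ligand Plau had 2.85 (2.41 to 3.29) and 4.98 (4.45 to 5.51), the matrix protease Mmp9 had 7.22 (6.60 to 7.84) and 12.9 (12.1 to 13.7), and Spp1, or osteopontin, had 30.3 (28.1 to 32.5) and 53.8 (50.8 to 56.8). Ccnd1 was not found under its own symbol. Of 8 textbook Egr targets, 1 was higher and 3 were lower, with a median of -0.20. The 3 lower ones were Pdgfa, with 13.1 (11.6 to 14.6) and 9.16 (8.01 to 10.3), Tgfb1, with 5.61 (4.95 to 6.27) and 4.41 (3.88 to 4.94), and Fn1, with 128.0 (122.5 to 133.5) and 109.1 (104.5 to 113.8). Tgfb1 was separate only as deposited. Fgf2, which encodes bFGF, had 0.666 (0.222 to 1.11) and 0.243 (0 to 0.485), with overlapping intervals. These genes answer to many other factors as well, and the lists do not show which factor acted on them.

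**Figure D5:**
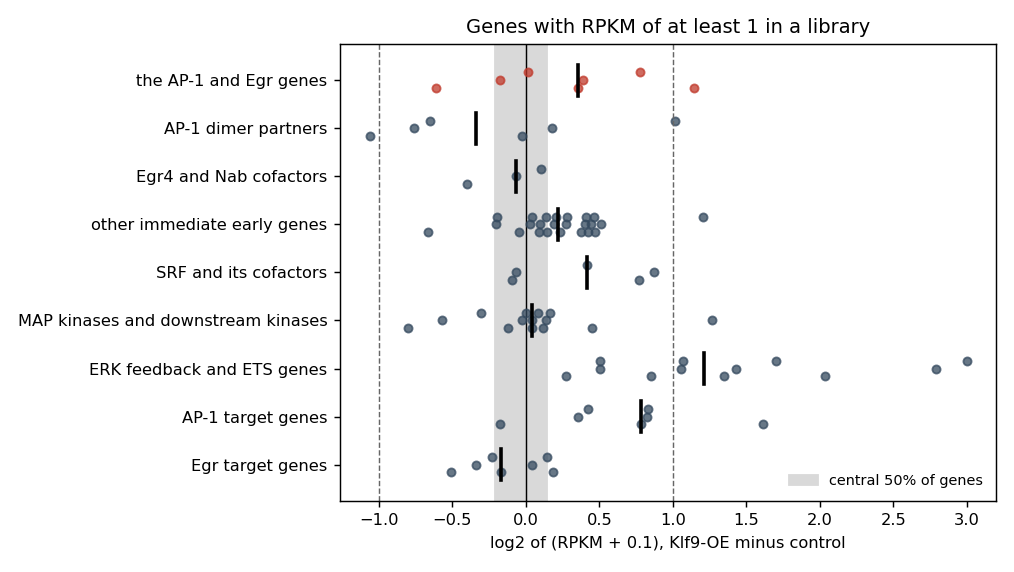
Log2 of (RPKM + 0.1), Klf9-OE minus control, for each gene (points) of the AP-1 and Egr list (red) and of 8 related lists (blue), with the list's median as a black bar, the central 50% of genes as a grey band and dashed lines at 2-fold. Only genes reaching an RPKM of 1 in a library are drawn, and the ERK feedback and ETS genes have the highest median of the 9 lists drawn.

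The sorted cells carried the defining germ cell transcripts. Dazl stood at an RPKM of 351.5 in control PGCs and 377.9 with Klf9-OE, and Ddx4 had 299.9 and 292.4. The 4 markers that differed most were all lower with Klf9-OE and without overlap: Dppa3 had 294.2 and 178.9, Pou5f1 had 387.0 and 276.9, Kit, the receptor of stem cell factor, had 23.0 and 16.8, and Nanos3 had 24.6 and 17.5. The summed RPKM of 10 germ cell markers was 2295 and 2033, with 7 of the 10 lower and 1 (Dazl) higher without overlap of intervals, and 7 and 0 with the wider ones. Immediate early genes are also transcribed in the other cells of the gonad. The sum of 12 markers of gonad somatic cells was 25.5 in control PGCs and 33.4 with Klf9-OE, with 4 higher (3 with the wider intervals) and 1 lower. Pdgfra was not found. Star, 1 of the 4 higher, was listed at 0 in control PGCs and had 2.39 (2.12 to 2.67) with Klf9-OE. That 0 may be a failed estimate. Tcf21 had 0.1065 (0 to 0.229) in control PGCs and was listed at 0 with Klf9-OE, without separate intervals. The sum of 4 endothelial markers was 19.9 and 30.2, with 2 higher and 1 lower (0 with the wider intervals). Most of it came from Pecam1, with 16.8 and 24.2, and which cells this RNA came from was not tested. Cdh5 had 1.995 and 5.09, Kdr 0.367 and 0.465, and Tek 0.735 and 0.439. The sum of 6 macrophage markers was 4.39 and 6.49, with 1 higher and 0 lower. The part of these cells in the differences of the AP-1 and Egr genes was not tested, and in bulk RNA fewer cells of a type and less RNA per cell cannot be told apart. Heat shock genes, which respond to handling stress, had 1 of the 5 found higher without overlap (Hspa8) and 0 lower, at a median log2 fold change of -0.016. Hspa1a and Hspa1b were not found under their own symbols. The median over 6 reference genes found was -0.0040, with Gapdh and Eef1a1 lower without overlap, and Ubb was not found.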

How the data were processed

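Gene expression was measured by RNA-seq (51-mer single-end reads, TruSeq RNA sample prep kit v2) in 1 control and 1 Klf9-OE library. The authors mapped the reads with TopHat2 and Bowtie to mm10 with RefSeq genes and deposited Cufflinks FPKM with 95% intervals, and for single-end reads FPKM equals RPKM. Versions of these tools are not given in the sources used here. Cufflinks also assembled transcripts per library, so a named locus can be rebuilt in one library.

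Values of rows with the same symbol were summed and joined by symbol, and locus starts were converted to count from 1. Ratios of RPKM used no pseudocount, and log2 fold changes used 0.1, which understates changes of low genes. A gene was called at a ratio of 2 or where intervals did not overlap, the latter over 18626 genes with 1 row and an OK status in each library. Bounds of ratios came from the intervals by the delta method. Implied reads are the square of 2 times the RPKM over the distance from value to upper bound. Summed RPKM intervals add distances from value to bound in quadrature. GENCODE M21 (GRCm38) gave strands and overlaps, and RefSeq (GRCm38.p6) gave promoter windows. For the AP-1 and Egr genes the window nearest to the start in the files was used. For the motif shares over all genes the first listed window of each gene was used. The genes and lists were chosen with earlier results of these data known. All 10 genes are named, and of other lists at most the 4 genes with the largest change in log2(RPKM + 1). Other genes were named afterwards (Dazl, Ddx4, Dusp1, Tcf21, Ccdc85b, Gm11175 and genes not found). Each gene has a single difference, so likeness of patterns between genes was not computed. Pseudocounts, filters, scalings, thresholds and interval widths were varied. The calls, ratio bounds and implied reads were run on simulated counts. That simulation had equal depth in both libraries, no reads counted in pairs and intervals built by the formula above, so it could not check these points. The other steps were not simulated. Python 3.11.15, numpy 2.4.6, pandas 2.3.3 and matplotlib 3.10.9 were used.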

Additional observations from a re-analysis of the deposited data

How the results depend on the processing

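No paired analysis was possible because each condition had 1 library, and none could be left out. The number of the 10 genes at least 2-fold higher, 2 as reported, was 0 with a pseudocount of 1, and 1 with an RPKM of at least 1 in a library, with an RPKM above 0 in both libraries or with a threshold of 4-fold. Egr1, at a ratio of 2.25, falls short of 2-fold with that pseudocount and of 4-fold without it, and Fosl1, listed at 0 in the control library, is lost with that pseudocount and with both filters. The number at least 2-fold lower was 0 and became 1 (Jund) with a threshold of 1.5-fold. The numbers with intervals that did not overlap, 5 higher and 1 lower, stayed within 1.5 times under each alternative, and the median log2 fold change of the 10 genes stayed positive. For the 9 genes with ratio bounds, the 36 log2 fold changes under the 4 settings of pseudocount and scaling all moved by less than the distance from value to bound, while filters and the choice of row cannot change the value of a single gene here. Fosl1 has no such bounds, and its log2 fold change of 3.40 was 6.59 with a pseudocount of 0.01 and 0.97 with 1. Rescaling to the same upper quartile or sum moved the median of all genes to 0.011 and 0.041. Few reads stand behind Egr3, Fosb and Fosl1.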
